A study of Mus musculus with 10 samples.

Results

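The genes described are 9 members of the growth pathway that runs from insulin-like growth factor 1 (IGF1) through its receptor to the kinase Akt, together with a pair of regulators tied to heart growth in exercise: Igf1, Igf1r, Insr, Irs1, Akt1, Akt2, Mtor, Cebpb and Cited4. Every probe set of the array whose annotated symbol is 1 of these genes was taken, which gave 18 probe sets of 22690. The rule that picks probe sets uses the annotation alone; the genes were chosen with earlier results of these data known. Of the 18, 16 were bright enough to be tested, and 1 probe set each of Insr (1421380_at) and Cited4 (1438261_at) was too dim.

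IGF1 is a secreted growth factor that binds a receptor tyrosine kinase, encoded by Igf1r, and the related insulin receptor is encoded by Insr. The adaptor IRS1 couples these receptors to phosphoinositide 3-kinase, which brings Akt to the membrane, and Akt activates protein synthesis in part through mTOR. In mouse hearts this pathway is known for the growth that follows endurance exercise. C/EBPβ, encoded by Cebpb, restrains that growth, and CITED4 is a transcriptional coregulator that has been described as running opposite to it in the exercised mouse heart. Much of the pathway acts by phosphorylation, which RNA levels do not show.

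The RNA came from right ventricles of 10 mice, all of strain 129SV, each measured on its own Affymetrix array. Trained plakoglobin (+/-) mice (n = 4) were set beside trained wildtype (wt) mice (n = 4), each group with 2 males and 2 females of 6 months. They swam in water at 35 °C, 6 times a week, for 5 min at first and 90 min at the end. The untrained mice were 1 plakoglobin (+/-) and 1 wt female, both of 10 months. Plakoglobin, encoded by Jup, is a junction protein of desmosomes, and the (+/-) mice are heterozygous for its loss; how the allele was made is not told by the labels. Training and age cannot be told apart in these groups, since every trained mouse was younger than both untrained mice. The labels call the mice littermates without saying which belong together. Where a group holds several mice, p values set a difference against the spread between these animals. Each untrained group is 1 mouse, so comparisons with untrained mice take their spread largely from the trained mice.

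Signals are linear intensities, and each array had been scaled by the authors to a common mean. The GAPDH control is read near its 3′ and its 5′ end, and the ratio of these signals (3′ over 5′, here the GAPDH ratio) is a sign of RNA quality. It was above 2 on 3 arrays: 17.8 in trained wt replicate 2 (a female), 2.98 in trained plakoglobin (+/-) replicate 1 (a male) and 2.502 in trained wt replicate 1 (a male). The other 7 arrays lay between 0.849 and 1.02. Jup signals of the trained groups overlapped, at 1992 to 3520 in plakoglobin (+/-) mice and 2928 to 4322 in wt mice. The untrained pair had 3157 in the plakoglobin (+/-) mouse and 2387 in the wt mouse. These signals do not separate the genotypes and are no check of the labels. The genotypes are used as labelled. Nppa, the atrial natriuretic peptide gene that heart load raises, had 18636 to 34501 in trained mice and 3966 and 4351 in untrained mice. All 6 cardiomyocyte markers were bright in every mouse, while of the 3 atrial markers Myl7 and Sln were at the floor of the scale (a signal of 104) in some mice and Myl4 had 1448 to 3234 over all mice, never at the floor.

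The promoters of Igf1 and Cebpb are shown because all probe sets of these genes had higher mean signals in trained males than in trained females at an unadjusted p below 0.05. Each is the stretch of 250 bases before a transcript start, on the plus strand, from RefSeq with build GRCm38.p6. Igf1 lies at chr10:87860861-87861110 and Cebpb at chr2:167688665-167688914. The Cebpb stretch ends where the annotated gene begins, whereas the Igf1 stretch lies inside the annotated gene, which begins at position 87858265, before a later start. Capitals mark GC boxes (GGGCGG on either strand, overlapping matches joined).
Igf1: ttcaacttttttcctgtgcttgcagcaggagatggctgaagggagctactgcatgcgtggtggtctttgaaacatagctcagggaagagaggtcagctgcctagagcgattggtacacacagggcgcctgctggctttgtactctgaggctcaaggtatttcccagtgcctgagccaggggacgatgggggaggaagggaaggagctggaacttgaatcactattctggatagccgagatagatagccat
Cebpb: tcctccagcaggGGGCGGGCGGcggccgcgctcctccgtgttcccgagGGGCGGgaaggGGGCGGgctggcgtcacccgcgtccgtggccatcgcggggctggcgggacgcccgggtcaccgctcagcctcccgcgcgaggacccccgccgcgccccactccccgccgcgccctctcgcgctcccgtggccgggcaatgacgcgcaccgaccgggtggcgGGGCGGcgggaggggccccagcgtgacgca
The Cebpb stretch held 5 GC boxes and was 81.6% G and C, whereas the Igf1 stretch held none and was 52.8% G and C. RefSeq promoters were found for 8 of the 9 genes (not Insr), with 12 annotated starts. The GC box was present at 7 of the 12 starts, against 32.7% of all 32851 promoters searched. The FoxO motif GTAAACA was present at 1 of 12, against 3.17% of all promoters. The C/EBP motif TTGCNNAA, present in 9.56% of all promoters, and the cAMP response element TGACGTCA, present in 1.55%, were in none of the 12. These matches describe letters in a window and are not binding sites.

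No probe set of the 9 genes passed in any comparison. A probe set was called at an adjusted p below 0.05 in a limma fit over all 13576 tested probe sets. For training (trained minus untrained, with genotype and sex in the fit), 0 of 16 were called, against 0.626% of all tested probe sets (37 higher and 48 lower). For genotype among the 8 trained mice (plakoglobin (+/-) minus wt), 0 of 16 were called, and the background was likewise 0%, with 273 of the 13576 at an unadjusted p below 0.05. For sex among the trained mice (male minus female), 0 of 16 were called, against 0.0516% of all tested. The difference in training change between the genotypes was called for 0 of 16 and for 0% of all tested, with 434 at an unadjusted p below 0.05. Because 2 untrained mice are the base of the training comparison, its 95% intervals are wide, and a p that misses the threshold does not show equal levels. Both untrained mice are female and sex is in the fit, so each training difference sets them against the trained females.

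**Figure D1:**
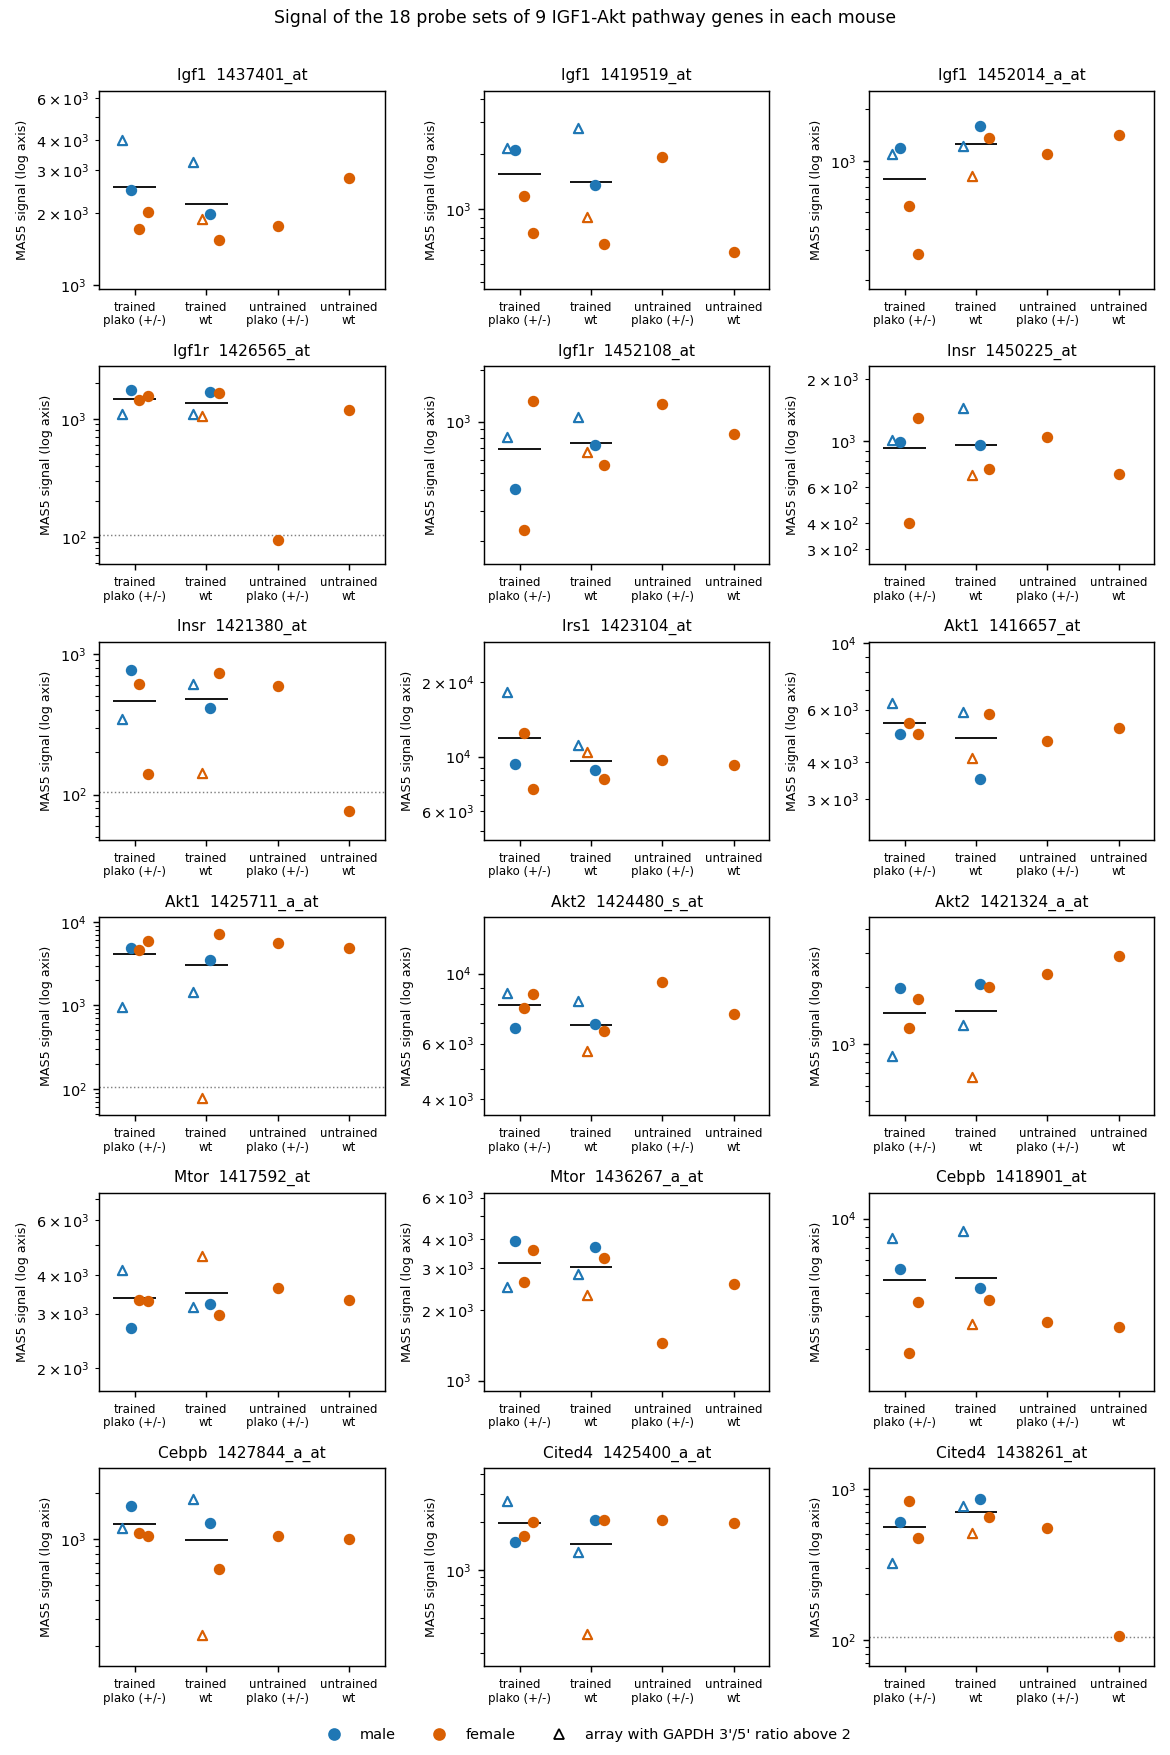
Signal (linear intensity on a log axis) of the 18 probe sets in each mouse, in columns for trained plakoglobin (+/-), trained wt, untrained plakoglobin (+/-) and untrained wt mice. Blue points are males, orange points females, open triangles the 3 arrays with a GAPDH ratio above 2, bars the arithmetic means of the trained groups and the dotted line the floor of 104. The male points lie above the female points in both trained groups for Igf1 1419519_at and both Cebpb probe sets, and the untrained plakoglobin (+/-) mouse lies below the floor for Igf1r 1426565_at.

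Igf1, the ligand, is read by 3 probe sets, and they did not place the untrained mice alike. The brightest, 1437401_at, had signals of 4012.5, 2498.3, 1713.7 and 2015.2 in trained plakoglobin (+/-) mice and 3262.4, 1893.7, 1981.7 and 1545.2 in trained wt mice. The untrained plakoglobin (+/-) mouse had 1767.2 and the untrained wt mouse 2794.3, both inside the trained range. The fitted training difference was -0.32 on the log2 scale (SE 0.32, 95% interval -1.01 to 0.38, adjusted p = 0.880). The sample is bulk tissue, so fewer cells of a type and less RNA per cell cannot be told apart in this or any later difference.

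The Igf1 probe set 1419519_at had 2159.8, 2105.2, 1181.1 and 740.1 in trained plakoglobin (+/-) mice and 2761.8, 906.1, 1345.7 and 642.6 in trained wt mice, against 1935.7 in the untrained plakoglobin (+/-) mouse and 587.1 in the untrained wt mouse. Here the untrained wt mouse was the lowest of the 10, whereas for 1437401_at it was among the highest. The training difference was -0.34 (SE 0.43, adjusted p = 0.907). The third, 1452014_a_at, had 1095.6, 1190.6, 542.1 and 283.5 in trained plakoglobin (+/-) mice and 1227.1, 810.6, 1605.2 and 1359.2 in trained wt mice, against 1096.1 in the untrained plakoglobin (+/-) mouse and 1409.2 in the untrained wt mouse. Its training difference was -0.95 (SE 0.44, 95% interval -1.92 to 0.01, unadjusted p = 0.0527, adjusted p = 0.586). With no sex term in the fit the difference of 1452014_a_at was -0.46. Its values in trained plakoglobin (+/-) mice averaged 778 ± 436 and those in trained wt mice 1251 ± 333 (SD, n = 4 each), with overlap. That was a genotype difference of -0.86 (SE 0.38, unadjusted p = 0.0473, adjusted p = 1), while the other Igf1 probe sets both gave 0.22, so the 3 did not share a direction by genotype. Without trained plakoglobin (+/-) replicate 4 the difference of 1452014_a_at was -0.56.

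Igf1r, the receptor for IGF1, held the largest training difference among the members, and it rested on a single mouse. Probe set 1426565_at had 1101.6, 1748.2, 1462.2 and 1552.7 in trained plakoglobin (+/-) mice and 1094.1, 1054.1, 1687.2 and 1663.7 in trained wt mice. The untrained plakoglobin (+/-) mouse had 93.5, below the floor of 104, and the untrained wt mouse had 1183.1, inside the trained range. The fitted training difference was 2.01 (SE 0.69, 95% interval 0.49 to 3.53, unadjusted p = 0.0143, adjusted p = 0.385), and its size depends on the floor: with the floor at the 25th percentile of all signals it was 1.13. Without the untrained plakoglobin (+/-) mouse it was 0.20, and without the untrained wt mouse it was 3.82 (adjusted p = 0.02003), which was the only value past the threshold among those computed for the members. The training change in plakoglobin (+/-) mice exceeded that in wt mice by 3.62 (SE 0.66, unadjusted p = 0.000317, adjusted p = 0.538), a comparison that sets that mouse against 1 untrained wt mouse. With the floor at the 25th percentile this value was 1.86.

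The second Igf1r probe set, 1452108_at, did not show that low value. It had 811.1, 403.5, 233.0 and 1319.2 in trained plakoglobin (+/-) mice and 1065.6, 659.6, 725.6 and 558.1 in trained wt mice, against 1265.2 in the untrained plakoglobin (+/-) mouse and 852.1 in the untrained wt mouse. The untrained plakoglobin (+/-) mouse was the second highest of the 10 here and the lowest for 1426565_at. The training difference was -0.84 (SE 0.66, adjusted p = 0.82898), opposite in sign to that of the other probe set.

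Insr, the insulin receptor gene, and Irs1, the adaptor, gave training differences near 0 with wide intervals. Insr 1450225_at had a median of 980 in trained mice (402.5 to 1450), against 1054 in the untrained plakoglobin (+/-) mouse and 696 in the untrained wt mouse, and a training difference of -0.26 (SE 0.48, 95% interval -1.31 to 0.79, adjusted p = 0.942). The dim Insr probe set ranged from 141 to 765 in trained mice and had 596 and 76.0 in the untrained plakoglobin (+/-) and wt mice, the last below the floor. Irs1 1423104_at had 18193.2, 9336.0, 12478.9 and 7356.9 in trained plakoglobin (+/-) mice and 11102.7, 10454.8, 8799.0 and 8097.0 in trained wt mice, against 9648.7 in the untrained plakoglobin (+/-) mouse and 9257.1 in the untrained wt mouse. The highest Irs1 value, in trained plakoglobin (+/-) replicate 1, came from an array with a GAPDH ratio above 2. The Irs1 training difference was -0.01 (SE 0.30, 95% interval -0.67 to 0.65, adjusted p = 0.996).

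Akt1 and Akt2 encode the kinases at the centre of the pathway, of which Akt1 is known for body and heart growth and Akt2 for the metabolic response to insulin in mice. Akt1 1416657_at was steady, averaging 5416 ± 638 in trained plakoglobin (+/-) mice and 4828 ± 1194 in trained wt mice (SD, n = 4 each), against 4710 in the untrained plakoglobin (+/-) mouse and 5222 in the untrained wt mouse. Its training difference was 0.02 (SE 0.26, 95% interval -0.55 to 0.59, adjusted p = 0.992). Akt2 1424480_s_at was also steady, averaging 7949 ± 900.0 in trained plakoglobin (+/-) mice and 6856 ± 1041 in trained wt mice (SD, n = 4 each), against 9424 in the untrained plakoglobin (+/-) mouse and 7438 in the untrained wt mouse. Its training difference was -0.24 (SE 0.20, 95% interval -0.69 to 0.20, adjusted p = 0.839). These steady probe sets were the brighter of each gene's pair.

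The second Akt2 probe set, 1421324_a_at, was the only 1 of the 16 tested members lower in all 8 trained mice than in both untrained mice, and the share of all tested probe sets with that order was 4.61%. It had 861.6, 1976.7, 1217.1 and 1727.7 in trained plakoglobin (+/-) mice and 1257.1, 674.6, 2051.7 and 1995.7 in trained wt mice, against 2331.8 in the untrained plakoglobin (+/-) mouse and 2886.8 in the untrained wt mouse. The fitted difference was -1.0 (SE 0.47, 95% interval -2.04 to 0.04, unadjusted p = 0.0583, adjusted p = 0.601). The lowest 2 signals came from arrays with a GAPDH ratio above 2, and without the 3 such arrays the difference was -0.64 (adjusted p = 0.321). With only trained wt replicate 2 left out it was -0.63. No member was higher in all trained mice than in both untrained mice, an order held by 4.63% of all tested probe sets.

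The second Akt1 probe set, 1425711_a_at, was lowest on the 3 arrays with a GAPDH ratio above 2. It had 960.1, 4921.5, 4589.5 and 5895.7 in trained plakoglobin (+/-) mice and 1442.2, 76.5, 3460.9 and 7108.9 in trained wt mice, against 5649.7 in the untrained plakoglobin (+/-) mouse and 4830.1 in the untrained wt mouse. The low values are those of trained plakoglobin (+/-) replicate 1 and trained wt replicates 1 and 2, and the lowest of all, 76.5, was on the array with the highest GAPDH ratio. It was the only 1 of the 16 tested members with this order, which 5.89% of all tested probe sets had. The training difference was -1.30 (SE 1.35, adjusted p = 0.885), but without those 3 arrays it was 0.14. The genotype difference was 1.28 (SE 1.16, adjusted p = 1), and without the 3 arrays it was -0.04. Leaving out trained wt replicate 2 alone gave 0.16 for training and -0.20 for genotype.

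**Figure D2:**
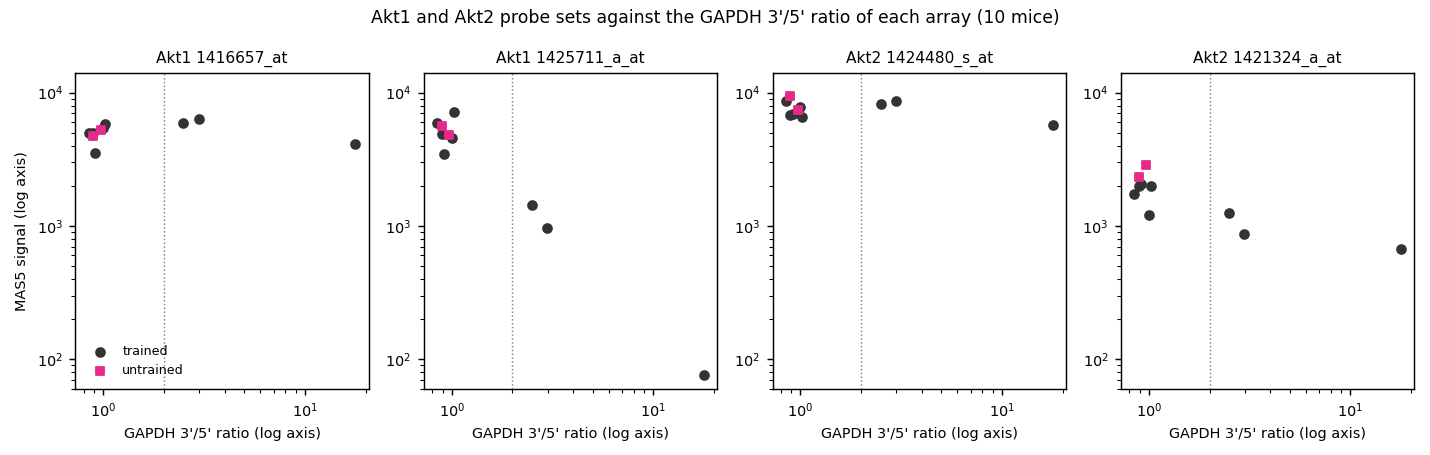
Signal of the Akt1 and Akt2 probe sets (linear intensity) against the 3′ to 5′ ratio of the GAPDH control probe sets in each of the 10 mice, both on log axes. Akt1 1425711_a_at has its 3 lowest signals, 76.5 to 1442.2, at the 3 ratios above 2, while Akt1 1416657_at stays between 3512 and 6324 in all mice.

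Mtor, whose product joins Akt signalling to protein synthesis, is read by 2 probe sets that ran in opposite order across mice. Probe set 1417592_at had 4139.0, 2706.8, 3318.9 and 3305.9 in trained plakoglobin (+/-) mice and 3155.9, 4591.6, 3230.4 and 2969.9 in trained wt mice, against 3626.0 in the untrained plakoglobin (+/-) mouse and 3317.9 in the untrained wt mouse. Probe set 1436267_a_at had 2490.8, 3929.9, 2613.3 and 3584.4 in trained plakoglobin (+/-) mice and 2849.3, 2305.8, 3690.4 and 3321.4 in trained wt mice, against 1447.2 in the untrained plakoglobin (+/-) mouse and 2583.8 in the untrained wt mouse. The mouse highest by the first probe set, trained wt replicate 2, was the second lowest by the other.

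Over the 10 mice the Mtor probe sets had a Pearson r of -0.60 and a Spearman rho of -0.85. By permutation the rho had p = 0.00279, or 0.0279 after adjustment over the 10 pairs of probe sets of the same gene, whereas the Pearson r had an adjusted p of 0.404. Leaving out the 2 mice farthest from the median of the first probe set gave r = -0.75, and the 7 arrays with low GAPDH ratios also gave -0.75. Training differences were 0.01 for 1417592_at (SE 0.25, 95% interval -0.54 to 0.56, adjusted p = 0.995) and 0.59 for 1436267_a_at (SE 0.31, 95% interval -0.09 to 1.27, adjusted p = 0.673). The pairs of the other genes had Pearson r between -0.45 for Igf1r and 0.49 for Igf1 1437401_at with 1419519_at, and none passed after adjustment.

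Cebpb encodes the transcription factor C/EBPβ, and its brighter probe set gave a training difference near 0 with sex in the fit. Cebpb 1418901_at had 7874.5, 5400.1, 1916.2 and 3582.4 in trained plakoglobin (+/-) mice and 8583.5, 2743.3, 4268.5 and 3678.9 in trained wt mice, against 2788.8 in the untrained plakoglobin (+/-) mouse and 2637.8 in the untrained wt mouse. Trained plakoglobin (+/-) replicate 3, at 1916.2, lay below both untrained mice, and trained wt replicate 2, at 2743.3, lay between them. All other trained mice were above both. The training difference was 0.09 (SE 0.34, 95% interval -0.66 to 0.84, adjusted p = 0.978). That fit holds sex as a term, and both untrained mice are female, so it sets the untrained mice against the trained females. With no sex term the difference was 0.65. Cebpb 1427844_a_at had 1178.1, 1647.2, 1098.6 and 1052.1 in trained plakoglobin (+/-) mice and 1812.7, 235.0, 1281.1 and 633.6 in trained wt mice, against 1041.1 in the untrained plakoglobin (+/-) mouse and 1000.6 in the untrained wt mouse. Its training difference was -0.66 (SE 0.52, 95% interval -1.81 to 0.48, adjusted p = 0.82898). The lowest signal, 235.0, was that of trained wt replicate 2, the array with the highest GAPDH ratio, and without that mouse the difference was -0.21.

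The training difference of Cited4 did not pass the test and was close to 0 without the 3 arrays of high GAPDH ratio. Cited4 1425400_a_at had 2701.3, 1484.2, 1632.2 and 1979.7 in trained plakoglobin (+/-) mice and 1294.1, 396.5, 2038.2 and 2059.8 in trained wt mice, against 2037.3 in the untrained plakoglobin (+/-) mouse and 1971.7 in the untrained wt mouse. The low value of 396.5 was on the array with the highest GAPDH ratio. The training difference was -0.65 (SE 0.56, 95% interval -1.88 to 0.57, adjusted p = 0.844), and without the 3 arrays with a ratio above 2 it was -0.06. The dim Cited4 probe set ranged from 323 to 860 in trained mice and had 550 and 106.5 in the untrained plakoglobin (+/-) and wt mice.

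Cebpb and Cited4 gave weak correlations across the 8 trained mice, with no settled sign. For their brightest probe sets the Pearson r was 0.33 (exact permutation p = 0.452) and the Spearman rho 0.17 (exact permutation p = 0.703). Leaving out the 2 mice farthest from the median Cebpb signal gave r = 0.67 over 6 mice, and leaving out each mouse in turn gave r between 0.01 (without trained wt replicate 2) and 0.47. The rho was -0.14 without trained wt replicate 2 and -0.04 without trained plakoglobin (+/-) replicate 1. Over all 10 mice r was 0.21 (permutation p = 0.578). The 5 trained mice with low GAPDH ratios were too few for a correlation to be read.

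**Figure D3:**
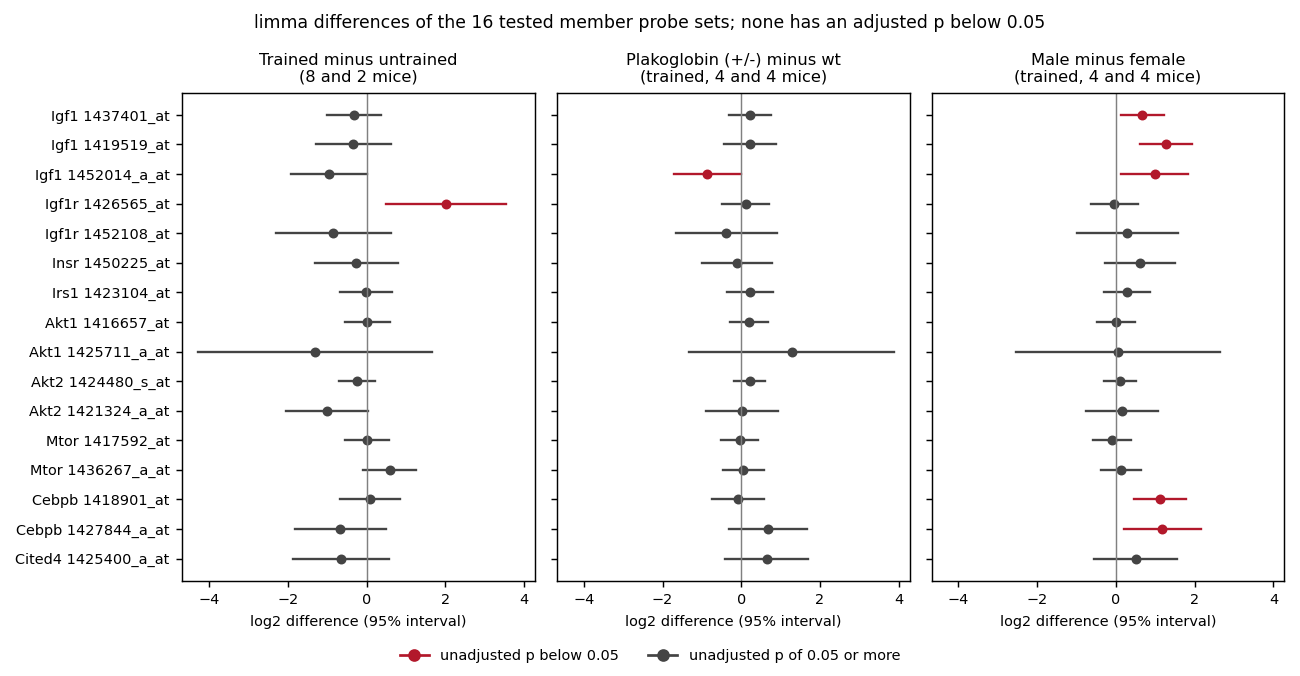
Fitted log2 differences of the 16 tested probe sets with 95% intervals, for training (trained minus untrained), genotype (plakoglobin (+/-) minus wt, trained mice) and sex (male minus female, trained mice), on a shared axis. Red marks an unadjusted p below 0.05, which 1 probe set has for training, 1 for genotype and 5 for sex, and no adjusted p is below 0.05.

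As a group, the members gave training differences above 0 for 5 and below 0 for 11 of 16 probe sets, with a median of -0.29, against a median of 0.00 over all tested probe sets. By gene, taking the brightest probe set of each, the median was -0.01. For genotype among trained mice, 11 were above 0 and 5 below, the median was 0.15 against 0.01 over all tested, and the differences ranged from -0.86 to 1.28. For sex, 14 were above 0 and 2 below, and the median was 0.28 against 0.01 over all tested. The probe sets of a gene are not independent of each other, and these counts carry no test.

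The differences with the lowest p values among trained mice were by sex, in Igf1 and Cebpb. All 3 Igf1 and both Cebpb probe sets were higher in trained males than in trained females at an unadjusted p below 0.05. That is 5 of 16 member probe sets, and 4.06% of all tested probe sets were higher in males by that measure. The 5 read Igf1 and Cebpb alone, and probe sets of a gene are not independent of each other. None passed after adjustment. Males and females did not overlap for 3 of the 16 (Igf1 1419519_at and both Cebpb probe sets), an order that 2.98% of all tested probe sets had.

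Igf1 1419519_at averaged 2093 ± 580 in trained males and 867 ± 236 in trained females (SD, n = 4 each). The lowest male, trained wt replicate 3 at 1345.7, was above the highest female, trained plakoglobin (+/-) replicate 3 at 1181.1. The fitted difference was 1.26 on the log2 scale (SE 0.30, 2.40-fold, unadjusted p = 0.00175, adjusted p = 0.429). Igf1 1437401_at averaged 2939 ± 888 in males and 1792 ± 206 in females (SD, n = 4 each), with overlap, and differed by 0.67 (SE 0.24, unadjusted p = 0.0199, adjusted p = 0.509). Igf1 1452014_a_at averaged 1280 ± 224 in males and 749 ± 460 in females (SD, n = 4 each), with overlap, and differed by 0.98 (SE 0.38, unadjusted p = 0.0274, adjusted p = 0.509). The Igf1 probe sets thus shared a direction by sex, which they did not by genotype.

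Cebpb 1418901_at averaged 6532 ± 2034 in trained males and 2980 ± 824 in trained females (SD, n = 4 each). The lowest male had 4268.5 and the highest female 3678.9, and both untrained females, at 2788.8 and 2637.8, lay within the trained female range. The fitted difference was 1.12 (SE 0.29, 2.18-fold, unadjusted p = 0.00355, adjusted p = 0.496). Cebpb 1427844_a_at averaged 1480 ± 300 in males and 755 ± 405 in females (SD, n = 4 each), and its groups were close, with the lowest male at 1178.1 and the highest female at 1098.6. It differed by 1.18 (SE 0.44, unadjusted p = 0.0237, adjusted p = 0.509). Untrained Igf1 signals, by contrast, did not keep to the trained female range: 1935.7 for 1419519_at in the untrained plakoglobin (+/-) mouse was above every trained female and 587.1 in the untrained wt mouse below every one.

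**Figure D4:**
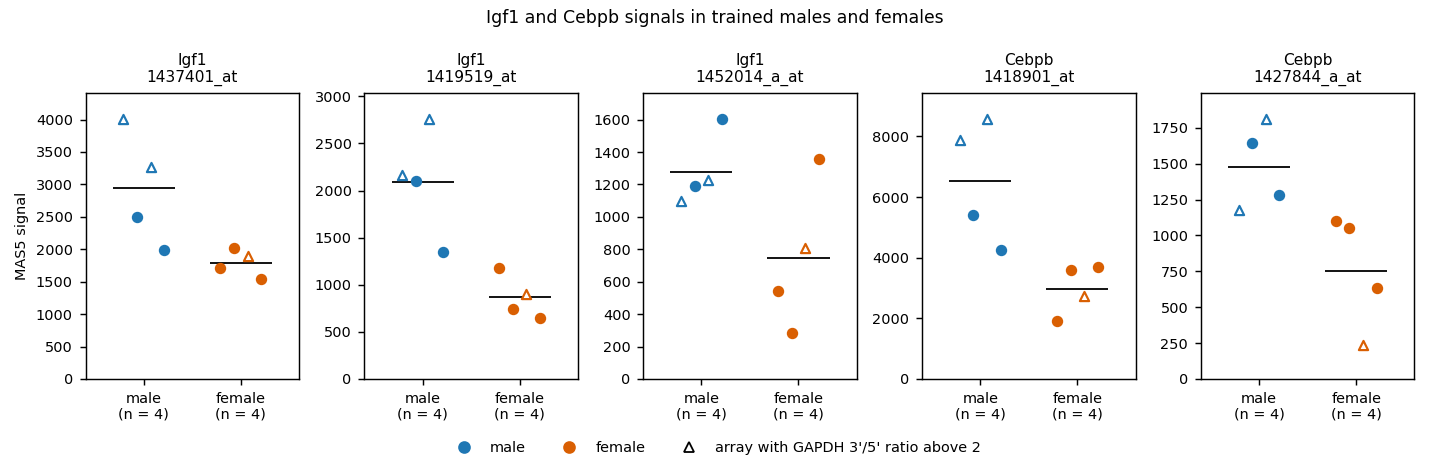
Signal (linear intensity from 0) of the 3 Igf1 and 2 Cebpb probe sets in trained males and trained females, 1 point per mouse and a line at each mean (n = 4 each), with open triangles for the 3 arrays with a GAPDH ratio above 2. Trained males and trained females do not overlap for Igf1 1419519_at (lowest male 1345.7, highest female 1181.1) and both Cebpb probe sets.

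The arrays with high GAPDH ratios fell unevenly by sex, on 2 of the 4 trained males and 1 of the 4 trained females. The highest Cebpb 1418901_at signals, 8583.5 and 7874.5, were on the male pair of these arrays. Without the 3 arrays the sex differences were 0.40, 1.13 and 1.02 for Igf1 1437401_at, 1419519_at and 1452014_a_at, and 0.69 and 0.79 for Cebpb 1418901_at and 1427844_a_at. The unadjusted p values were then 0.135, 0.0139, 0.0892, 0.0457 and 0.0522 in the same order. With the log ratio as a covariate on all trained mice the differences were 0.72, 1.31, 0.97, 1.14 and 1.06. Leaving out each trained mouse in turn kept all 5 above 0, with ranges of 0.51 to 0.83, 1.04 to 1.46 and 0.68 to 1.24 for Igf1 and 0.90 to 1.36 and 0.73 to 1.44 for Cebpb, in the same order. The lowest value of Cebpb 1427844_a_at, 0.73, was that without trained wt replicate 2.

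The summed macrophage and leukocyte markers differed by sex as well, though only some of the markers did so singly. The summed signal of the 7 listed markers was 30914 to 38591 in trained males and 20102 to 27340 in trained females, with no overlap, and on the arrays with low GAPDH ratios it was 31780 to 34801 in males and 21606 to 27340 in females. Of the 7, Csf1r, Adgre1 and Mrc1 were higher in all trained males than in all trained females, an order that 2.98% of all tested probe sets had. Ptprc, Cd68, C1qa and C1qb overlapped, with differences of 0.09, 0.24, 1.01 and 0.34 (male minus female). Csf1r was the brightest of the 7, and none was at the floor in any mouse. Both untrained females had sums of 35300, above every trained female. The summed fibroblast markers overlapped, at 74003 to 91027 in males and 66135 to 81859 in females. On the arrays with low GAPDH ratios they did not, at 83575 to 91027 in males and 66135 to 81859 in females. Dcn made up most of this sum, and over all trained mice it differed by 0.05 (male minus female). Col1a2 and Tcf21 gave 0.39 and 0.06, whereas Col1a1 and Pdgfra gave -1.13 and -0.46, lower in males. The 4 endothelial markers likewise summed to 11368 to 14284 in males and 10596 to 13838 in females, and on the arrays with low GAPDH ratios to 12595 to 14284 in males and 10596 to 11775 in females, without overlap. Among these, Kdr differed by 0.66 (male minus female, unadjusted p = 0.0190) and Cdh5 by 0.26. Pecam1 and Tie1 differed by -0.78 and -0.14, so the 4 did not share a direction. The arrays with low GAPDH ratios held few mice of each sex. Of the 4 smooth muscle and pericyte markers only Pdgfrb kept the sexes apart, at 3217 to 5237 in males and 2203 to 2504 in females, and their sums overlapped. The part of these cells in the Igf1 and Cebpb differences was not tested.

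Outside Igf1 and Cebpb, the sex differences of the members ran from -0.10 to 0.61 on the log2 scale, the highest being Insr 1450225_at (SE 0.40, adjusted p = 0.670). Insr averaged 1106 ± 230 in trained males and 779 ± 376 in trained females (SD, n = 4 each), with overlap. Akt1 1416657_at, at 5177 ± 1242 in males and 5067 ± 716 in females, and Mtor 1417592_at, at 3308 ± 600.3 in males and 3547 ± 715 in females (SD, n = 4 each), lay within their spread.

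By genotype among trained mice, every member overlapped between plakoglobin (+/-) and wt mice. The share of all tested probe sets that overlapped was not computed, so this is not read as a trait of the members. Cited4 1425400_a_at averaged 1949 ± 543 in plakoglobin (+/-) mice and 1447 ± 786 in wt mice (SD, n = 4 each), a difference of 0.65 (SE 0.47, adjusted p = 1) that was -0.31 without the 3 arrays with high GAPDH ratios and 0.10 without trained wt replicate 2 alone. Irs1 averaged 11841 ± 4731 in plakoglobin (+/-) mice and 9613 ± 1401 in wt mice, and Igf1r 1426565_at 1466 ± 271 in plakoglobin (+/-) mice and 1375 ± 348 in wt mice (SD, n = 4 each). Cebpb 1418901_at averaged 4693 ± 2554 in plakoglobin (+/-) mice and 4819 ± 2587 in wt mice (SD, n = 4 each), close to each other beside a wide spread in each group. Cebpb 1427844_a_at gave 0.67 (SE 0.44, adjusted p = 1), and 0.23 without trained wt replicate 2.

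The training change was also set against genotype directly, with 1 untrained mouse per genotype assumed to vary like the others. Besides Igf1r 1426565_at, the lowest p was that of Igf1 1419519_at, whose change in plakoglobin (+/-) mice minus that in wt mice was -1.502 (SE 0.67, unadjusted p = 0.0504, adjusted p = 1). Igf1 1437401_at gave 0.88 (SE 0.54, adjusted p = 1), opposite in sign. The untrained pair stood in opposite order for these probe sets too, with the plakoglobin (+/-) mouse at 3.30 times the wt mouse for 1419519_at and at 0.632 times for 1437401_at. With 1 mouse each, no spread can be given for either ratio.

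Other genes of the pathway were taken from a list of 55, of which 49 were on the array and 43 were tested. None of the 43 passed for training, genotype or sex. For training, 23 were above and 20 below 0, with a median of 0.02. By role, the medians were -0.37 for 7 ligands and binding proteins (2 above 0), 0.02 for 10 adaptors and PI3K genes (5 above), 0.23 for 8 kinases and mTOR complex genes (6 above), -0.01 for 11 targets (5 above) and 0.10 for 7 exercise-linked regulators (5 above).

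The lowest adjusted p of the list for training was that of Igfbp3, which encodes a binding protein that carries IGF1 in the blood, with a difference of 1.08 (SE 0.29, adjusted p = 0.202). It averaged 1707 ± 609 in trained mice (SD, n = 8), against 888.6 and 1208.6 in the untrained plakoglobin (+/-) and wt mice, with overlap. Among trained mice Igfbp3 was lower in males, by -0.90 (SE 0.24, adjusted p = 0.496), and the training fit compares females. Sesn1, which encodes sestrin 1, an inhibitor of mTOR complex 1, averaged 12907 ± 4245 in trained mice (SD, n = 8), against 6048.3 in the untrained plakoglobin (+/-) mouse and 4511.5 in the untrained wt mouse. All trained mice were above both, and the difference was 1.14 (SE 0.34, adjusted p = 0.287). Srf, which encodes a transcription factor of muscle genes, averaged 2936 ± 687 in trained mice (SD, n = 8), against 1730.7 and 2071.2 in the untrained plakoglobin (+/-) and wt mice, again without overlap, and differed by 0.67 (SE 0.29, adjusted p = 0.541). In all, 3 of the 43 tested genes had every trained mouse above both untrained mice and 0 had every trained mouse below, beside 4.63% and 4.61% of all tested probe sets. Rps6kb2, a listed gene too dim to be tested, averaged 203 ± 86 in trained mice (SD, n = 8). All trained mice were below its untrained signals, 1071.1 in the plakoglobin (+/-) mouse and 915.1 in the wt mouse. It was picked for this order, and its trained mean was not far above the floor of 104. The other listed genes too dim to be tested, Igfbp2, Igfals, Irs2, Rictor and Rps6, overlapped between trained and untrained mice. The share of untested probe sets with this order was not computed. The filter on mean signal can thus leave out genes that are low in trained mice.

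Further listed genes had smaller differences against their errors. Among binding proteins, Igf2r gave -0.70 (SE 0.53) and Igfbp7 -0.65 (SE 0.29). Among the PI3K genes, the regulatory subunits Pik3r1 and Pik3r2 gave 0.98 (SE 0.78) and -0.73 (SE 0.44), in opposite directions. Trib3, an Akt inhibitor, gave -0.75 (SE 0.42). The translation repressor gene Eif4ebp1 gave 0.33 (SE 0.22), and the FoxO genes Foxo3 and Foxo4, whose products Akt holds out of the nucleus, gave -0.27 (SE 0.26) and -0.42 (SE 0.46). The cardiac transcription factor gene Gata4 gave -0.34 (SE 0.27). None of these passed the threshold.

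The genes whose log2 signals ran most like those of Igf1, Cebpb and Cited4 over the 10 mice were found among 8364 other genes, each by its brightest probe set. For Igf1 1437401_at they were Cfl1 (r = 0.95), Cald1 (r = 0.94) and F2r (r = 0.94). For Cebpb 1418901_at they were Gfpt2 (r = 0.97), Sptan1 (r = 0.96) and Pdcd6 (r = 0.94), and over the 7 arrays with low GAPDH ratios r was between 0.83 and 0.99. For Cited4 1425400_a_at they were Csnk1g2 (r = 0.95), Coq8b (r = 0.93) and Mapkapk2 (r = 0.93), but over the 7 arrays r was 0.69, 0.03 and 0.24 in that order. These values describe the top of a long ranking over mice that share groups and array quality.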

How the data were processed

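Right ventricular RNA of 10 mice was measured on Affymetrix arrays. The deposited values are linear signal intensity values per probe set, made by the authors with MAS5 version 5.0, per the submitters' processing notes. The mean without the lowest and highest 2% of values was 2501 to 2502 on each array, so the arrays had been scaled to a common level. No detection calls came with the values. The number of arrays limits the precision. The sources of the array data name no genome build, and GRCm38.p6 is that of the RefSeq promoters only.

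Groups came from the labels. Replicate numbers only name mice. Gene symbols came from the platform annotation (20393 probe sets with 1 symbol, 691 with several, 1606 unlisted).

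Signals were raised to a floor of 104 (10th percentile) and log2 transformed. Without the 64 control probe sets, 13576 remained whose mean log2 signal reached the 40th percentile (a signal of 661), and these were tested with limma 3.58.1 (lmFit, eBayes with trend) in R 4.3.3, two-sided, with Benjamini-Hochberg adjustment over all of them. Training was fitted over 10 mice with genotype and sex, genotype and sex over the 8 trained mice in 1 fit, and the difference in training change by an interaction term. The fit was tested on simulated data with 200 probe sets changed by known sizes. For training it called 11% of those changed by 1 on the log2 scale and 52% of those changed by 2. For genotype in trained mice it called 35% and 72%. True changes of these sizes can thus be missed. Correlations used permutation tests (scipy 1.17.1).

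The members and lists were chosen with earlier results of these data known. All members' probe sets are named. Of the wider pathway list, the 3 tested genes per role with the largest training difference could be named, and for Igf1, Cebpb and Cited4 the 3 genes most alike. Rps6kb2 is named besides, picked for its order among the listed genes that the filter left out. Alternatives were cyclic loess or quantile normalization, a pseudocount of 1 in place of the floor, the floor raised to the 25th percentile, the filter dropped or raised to the 60th percentile, no trend in eBayes, no sex term, all mice in 1 fit, females or a single genotype only, each mouse left out, and the GAPDH ratio as a filter (above 2) or covariate.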

Additional observations from a re-analysis of the deposited data

Results flagged for a closer look

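Akt1 1425711_a_at had a signal of 960.1 in trained plakoglobin (+/-) replicate 1, against 4589.5 to 5895.7 in the other trained plakoglobin (+/-) mice. The gap to the nearest of these was 0.862 of the group's range, above Dixon's critical value for 4 samples. It was the only such value in 36 sets of 4 signals (18 probe sets, each trained group), and chance flags about 1 in 20. This array had a GAPDH 3′ to 5′ ratio of 2.98; the part of RNA quality in the low value was not tested.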

How the results depend on the processing

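No paired analysis was possible because no label tells littermates, and the replicate numbers are only names. No member passed the threshold under any alternative run except Igf1r 1426565_at without the untrained wt mouse, so the number of members past it for training was 0 to 1 over the fits with a mouse left out. Over all tested probe sets, the training count of 85 became 225 without the 3 arrays of GAPDH ratio above 2, 1 in wt mice only, 2 in plakoglobin (+/-) mice only and 10 to 87 with a mouse left out; the untrained plakoglobin (+/-) mouse left out gave 10 and the untrained wt mouse 34, with 51 and 53 for trained plakoglobin (+/-) replicates 3 and 4 and 50 for trained wt replicate 4. The sex count of 7 became 13 with quantile normalization, 15 with the higher floor, 2 with no filter, 11 with the stricter filter, 1 without trend, 17 without the 3 arrays, 16 with the ratio as covariate, 15 with all 10 mice and 1 to 12 with a mouse left out. The count for the difference in training change, 0, became 1 with quantile normalization, 66 with no filter, 1 without the 3 arrays and 0 to 1 with a mouse left out; leaving out an untrained mouse gives no value there. Of the 16 members, the direction held in every alternative for 7 (training), 7 (genotype), 8 (sex) and 11 (difference in training change). Training differences turned in sign as follows. With no sex term Igf1 1437401_at gave 0.0174, Igf1 1419519_at 0.30, Insr 1450225_at 0.0436, Irs1 0.13 and Mtor 1417592_at -0.0367. In wt mice only Igf1 1419519_at gave 0.38, Insr 0.0232 and Akt1 1416657_at -0.10. In plakoglobin (+/-) mice only Igf1 1437401_at gave 0.0726, Mtor 1417592_at -0.13, Cebpb 1418901_at -0.0901 and Cebpb 1427844_a_at 0.0464. Cyclic loess gave -0.0091 for Akt1 1416657_at and -0.003 for Mtor 1417592_at. Without the 3 arrays Akt1 1425711_a_at gave 0.14 and Mtor 1417592_at -0.12, and with the covariate 0.17 and -0.15. With a mouse left out the ranges that crossed 0 were -0.76 to 0.12 (Igf1 1437401_at), -1.09 to 0.42 (Igf1 1419519_at), -0.61 to 0.0901 (Insr), -0.13 to 0.16 (Irs1), -0.15 to 0.19 (Akt1 1416657_at), -2.18 to 0.16 (Akt1 1425711_a_at), -0.14 to 0.10 (Mtor 1417592_at) and -0.0411 to 0.31 (Cebpb 1418901_at). The far ends came without the untrained wt mouse for Igf1 1437401_at, without the untrained plakoglobin (+/-) mouse for Igf1 1419519_at, Insr and Akt1 1416657_at, without trained plakoglobin (+/-) replicate 4 for Irs1 and Cebpb, and without trained wt replicate 2 for Akt1 1425711_a_at and Mtor 1417592_at. Genotype differences turned for 9 probe sets. Of those, 7 had fitted differences between -0.38 and 0.11: both Igf1r, both Mtor, Insr 1450225_at, Akt2 1421324_a_at and Cebpb 1418901_at. The others were Akt1 1425711_a_at (-0.0398 without the 3 arrays, -0.14 with the covariate, -0.20 to 2.23 with a mouse left out) and Cited4 1425400_a_at (-0.31 without the 3 arrays). The cause was not tested. Signals near the floor have no order, which limits the dim probe sets most.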
